A study of Bos taurus with 16 samples.

Results

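Dopamine receptor DRD2, the G protein alpha subunits GNAL and GNA14 and the cAMP phosphodiesterase PDE4D are 4 of the 27607 genes measured in the prefrontal cortex (PFC) of aggressive and non-aggressive bulls. They were chosen by name from the study's supplementary list of differentially expressed genes, which was made with the comparison of Lidia and Wagyu in these same animals. Their Lidia and Wagyu values therefore chose them, and they are given here as a description with no p-value. Where one of them, or another gene of that list, is said to be called, the call repeats the comparison that chose it and is no evidence about it. The study asked which genes differ in the PFC between a breed selected for aggressiveness and a docile one.

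The aggressive group was 8 non-castrated Lidia males, 4 from the farm La Quinta and 4 from the farm Montealto, the farms being those of the study's sample table. The non-aggressive group was 8 non-castrated Wagyu males of 1 other farm. All were 3 years old except Lidia replicate 8, which was 4 years old. The Lidia bulls had been incited to fight and were sampled at the bullring, whereas the Wagyu bulls were sampled at the slaughterhouse, so that breed, farm, feeding, handling and place of sampling cannot be told apart. RNA of whole medial PFC tissue was sequenced once per animal in paired-end mode with reads of 100 bases, and fewer cells of a type and less RNA per cell cannot be told apart in such samples. Replicates are numbered in the order of the series, and the numbers pair no animals.

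Dopamine acts on receptors that signal through heterotrimeric G proteins. Receptors of the D1 class stimulate adenylyl cyclase and raise cAMP, with the alpha subunit that GNAL encodes (G alpha olf) as one of their partners, while the D2 receptor acts through inhibitory G proteins and lowers cAMP. Phosphodiesterases such as PDE4D break cAMP down. GNA14 belongs to the Gq class, which couples receptors to phospholipase C rather than to adenylyl cyclase.

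The deposited value is FPKM, the fragments on a transcript divided by its length and by the fragments mapped in that animal. The FPKM of a gene was the sum over its transcripts. The FPKM of the 16 animals summed to between 172575 and 244276 in 14 of them but to 439325 in Lidia replicate 4 and 567732 in Wagyu replicate 4. In these animals the fragment total by which FPKM is divided, read from coverage, was smallest, 13.7 M and 7.67 M. It was 20.02 M to 37.0 M in the others, M being 10 to the power 6. Values were therefore divided by a median-of-ratios factor per animal and are called scaled FPKM. These totals do not order the animals by fragments on a gene. Taking a fragment as 200 bases, GNAL transcript ENSBTAT00000002747 had 121.2 fragments in Lidia replicate 6, at 3.07 scaled FPKM. In Lidia replicate 4 it had 198.9, at 2.55. A gene was called when limma gave a Benjamini-Hochberg adjusted p of at most 0.05 and a difference of at least 0.1 on the log2(scaled FPKM + 0.1) scale. Of 16577 genes with a mean of at least 0.1 scaled FPKM, 4.99% were called, 3.33% as higher and 1.66% as lower in Lidia. On the FPKM as deposited, 0 of 16614 genes were called by limma, with 1022 at an unadjusted p under 0.05.

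The 4 genes spanned a wide range of levels. By mean scaled FPKM over the 16 animals, GNAL was at 5.13, above 65.7% of the tested genes, and PDE4D was at 2.92, above 51.7%. GNA14 was at 0.933, above 26.8%, and DRD2 was at 0.445, above 15.3%. GNAL exceeded PDE4D, and PDE4D exceeded GNA14, in all 16 animals. GNA14 exceeded DRD2 in 7 of 8 Lidia and 7 of 8 Wagyu animals, and the ranges of these neighbours overlapped in both breeds. Taking a fragment as 200 bases, DRD2 rested on 16.6 to 43.1 fragments in a Lidia animal and on 9.5 to 27.6 in a Wagyu animal. GNA14 rested on 10.9 to 93.8 in a Lidia animal and on 10.9 to 59.4 in a Wagyu animal. GNAL rested on 122.7 to 946.8 fragments and PDE4D on 65.2 to 607.5. The values of DRD2 and GNA14 are therefore the least precise of the 4. No other annotated gene overlapped the span of any of the 4.

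**Figure D1:**
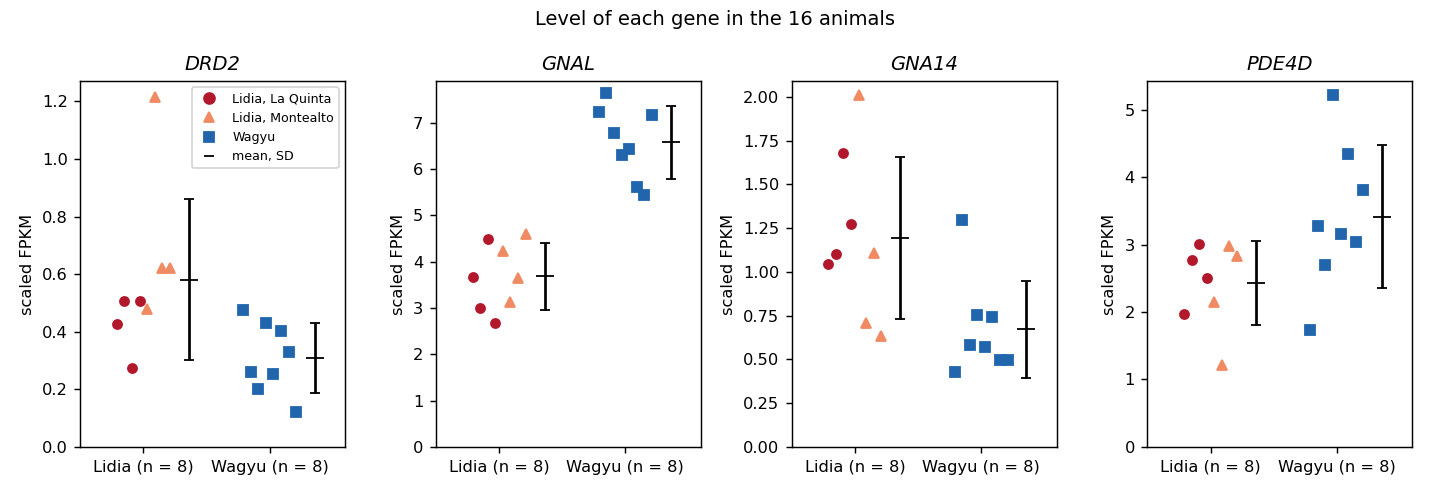
Scaled FPKM of DRD2, GNAL, GNA14 and PDE4D in each of the 8 Lidia animals (circles La Quinta, triangles Montealto) and 8 Wagyu animals (squares), with the mean and SD of each breed at the right of its points, on linear axes from 0. The Lidia animals lie between 2.67 and 4.61 for GNAL, all below the Wagyu animals, and the breeds overlap for the other 3 genes.

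DRD2 (ENSBTAG00000010860, chr15:23969723-23982733, minus strand, ARS-UCD 1.2) encodes the D2 receptor. Its scaled FPKM in Lidia ran from 0.273 to 1.22 with a median of 0.506, and the mean was 0.581 ± 0.279 (SD, n = 8). In Wagyu it ran from 0.120 to 0.476 with a median of 0.295, and the mean was 0.309 ± 0.122 (SD, n = 8). Of the Lidia animals, 6 lay above every Wagyu animal, and the lowest Lidia value, in replicate 3, lay within the Wagyu range. The difference was 0.71 on the log2 scale (SE 0.24), and it was 0.66 (SE 0.30) as deposited. The highest scaled value, 1.22, belonged to Lidia replicate 6, the animal with the lowest scaling factor, 0.617. As deposited, Wagyu replicate 4, the animal of the highest FPKM sum, was highest at 0.950. On that scale 0 Lidia animals lay above all Wagyu animals. By scaled FPKM, the 4 La Quinta bulls ran from 0.273 to 0.506 and the 4 Montealto bulls from 0.480 to 1.22. Montealto thus lay mostly above La Quinta.

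The annotation holds 2 transcripts of DRD2. ENSBTAT00000014422 has 7 exons, among them one of 87 bases at chr15:23973743-23973829, and ENSBTAT00000063318 has 6 exons and lacks it. An exon of this kind tells the long from the short form of the D2 receptor, which differ in the third intracellular loop. The 2 transcripts also differ at their ends. The last exon has 1263 bases in the first and 194 in the second, and the first exon has 310 and 285. Their shares therefore do not measure the 87-base exon alone. The form with the exon held most of the gene's FPKM, 90.2% ± 16.2 in Lidia and 79.5% ± 17.3 in Wagyu (SD, n = 8 each). The share of the form without it ran from 0.0001% to 39.6% in Lidia with a median of 1.15%, and from 0.0012% to 47.1% in Wagyu with a median of 19.0%. In Lidia only replicates 7 and 8, both from Montealto, were above 5% (39.6% and 31.9%), while 6 of the 8 Wagyu animals were. These shares rest on few fragments: the form without the exon had 9.94 fragments in Lidia replicate 7 and 4.27 in Wagyu replicate 4. Cufflinks' confidence limits on its scaled FPKM were 0.0847 to 0.408 in the former and 0.0035 to 0.401 in the latter. Wagyu replicates 1, 5 and 8, also above 5%, had only 1.15, 1.46 and 1.18 fragments of it. In these and in Wagyu replicate 2 the lower limit was 0, so the number of Wagyu animals above 5% is uncertain. In Lidia replicate 6, where DRD2 was highest, the form with the exon held 99.9999% of the FPKM.

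GNAL (ENSBTAG00000002125, chr24:42652184-42723588, plus strand) had the clearest separation of the 4. Its scaled FPKM in Lidia ran from 2.67 to 4.61 with a median of 3.66, and the mean was 3.68 ± 0.717 (SD, n = 8). In Wagyu it ran from 5.43 to 7.65 with a median of 6.60, and the mean was 6.57 ± 0.788 (SD, n = 8). All 8 Lidia animals lay below all 8 Wagyu animals, a separation that 0.32% of all tested genes had in this direction and 0.386% in the other. From these shares nothing is read about GNAL, since the same comparison chose it. The difference was -0.83 on the log2 scale (SE 0.11), with Wagyu 1.78-fold above Lidia on the log2(scaled FPKM + 0.1) scale. La Quinta ran from 2.67 to 4.48 and Montealto from 3.13 to 4.61, so both farms covered nearly the same range. GNAL was the 1 called gene of the 4, against 4.99% of all tested genes. As deposited, with a difference of -0.88 (SE 0.25), it was not called, and 5 Lidia animals lay below all Wagyu animals. The calls of DRD2 and GNA14 moved with the setting: both were called with array weights. GNA14 was also called without Lidia replicate 6, without Lidia replicate 8 and without Wagyu replicate 2. PDE4D was called in no setting.

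GNAL has 2 annotated transcripts with different first exons. Their last exons differ too, with 1999 bases in ENSBTAT00000002747 and 147 in ENSBTAT00000079386, so their shares do not measure the first exons alone. ENSBTAT00000002747, of 13 exons, starts at chr24:42671471 and held 96.8% ± 1.47 of the FPKM in Lidia and 97.8% ± 0.967 in Wagyu (SD, n = 8 each). ENSBTAT00000079386, of 12 exons, starts upstream of it with an exon of 812 bases at chr24:42652184-42652995. It held 3.19% ± 1.47 in Lidia and 2.16% ± 0.967 in Wagyu. The scaled FPKM of the main transcript ran from 2.55 to 4.45 in Lidia and from 5.38 to 7.51 in Wagyu, without overlap, as for the gene. That of the upstream transcript ran from 0.0430 to 0.220 in Lidia and from 0.0448 to 0.227 in Wagyu, which overlapped almost wholly.

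GNA14 (ENSBTAG00000021127, chr8:53465620-53665709, minus strand) was the other alpha subunit and differed the opposite way. Its scaled FPKM in Lidia ran from 0.635 to 2.01 with a median of 1.10, and the mean was 1.19 ± 0.462 (SD, n = 8). In Wagyu it ran from 0.428 to 1.29 with a median of 0.578, and the mean was 0.671 ± 0.277 (SD, n = 8). The groups overlapped: 2 Lidia animals lay above all Wagyu animals and 5 Wagyu animals below all Lidia animals. The difference was 0.73 on the log2 scale (SE 0.23), and it was 0.69 (SE 0.35) as deposited. The highest Wagyu value, 1.29 in replicate 2, stood apart from the next, 0.755. La Quinta ran from 1.04 to 1.68 and Montealto from 0.635 to 2.01, so the lowest and the highest Lidia animals were both from Montealto.

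The 2 transcripts of GNA14 also differ at their start. ENSBTAT00000028151, of 7 exons, begins with an exon of 700 bases at chr8:53663179-53663878. ENSBTAT00000068584, of 8 exons, begins farther upstream with an exon of 36 bases at chr8:53665674-53665709. The first held 42.8% ± 12.3 of the FPKM in Lidia and 36.7% ± 14.7 in Wagyu (SD, n = 8 each), and the second held the rest. By level, the first ran from 0.208 to 0.918 scaled FPKM in Lidia and from 0.134 to 0.331 in Wagyu, with 7 of 8 Lidia animals above all Wagyu animals. The second ran from 0.301 to 1.42 in Lidia and from 0.241 to 1.07 in Wagyu, with 1 of 8 Lidia animals above all Wagyu animals. The separation of the breeds was thus greater for the transcript that starts with the 700-base exon, while the shares themselves overlapped. The 1 of 8 for the second rested on Wagyu replicate 2, at 1.07 against 0.564 in the next Wagyu animal. Fragments were as few as 4.29 for the first (Lidia replicate 6) and 6.07 for the second (Wagyu replicate 7).

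PDE4D (ENSBTAG00000000494, chr20:20014955-20315593, plus strand) had the smallest difference of the 4 on the log2(scaled FPKM + 0.1) scale. With a pseudocount of 1 that of DRD2, 0.26, was smaller than that of PDE4D, -0.35. Its scaled FPKM in Lidia ran from 1.21 to 3.01 with a median of 2.64, and the mean was 2.43 ± 0.621 (SD, n = 8). In Wagyu it ran from 1.74 to 5.23 with a median of 3.22, and the mean was 3.41 ± 1.06 (SD, n = 8). The lowest Lidia animal, replicate 6, lay below all Wagyu animals, 6 Wagyu animals lay above all Lidia animals, and the lowest Wagyu animal, replicate 1, lay below all but 1 Lidia animal. The difference was -0.46 on the log2 scale (SE 0.21), and it was -0.50 (SE 0.36) as deposited. La Quinta ran from 1.98 to 3.01 and Montealto from 1.21 to 2.98.

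PDE4D is known for long and short forms that share their catalytic part and start from different promoters. ENSBTAT00000072751, of 15 exons, starts at the upstream end of the gene. ENSBTAT00000000631, of 10 exons, starts at chr20:20293517, and ENSBTAT00000086988, also of 10 exons, starts between them with an exon of 938 bases. The shortest form held 51.6% ± 23.5 of the FPKM in Lidia and 54.5% ± 13.9 in Wagyu, the 15-exon form 44.3% ± 22.8 and 43.0% ± 13.4, and the intermediate one 4.13% ± 2.38 and 2.55% ± 2.47 (SD, n = 8 each). The breeds overlapped in all 3 shares. Lidia replicate 6 differed from every other animal: the shortest form held 0.0715% there and the 15-exon form 95.5%. In the other 15 animals the shortest form held between 32.0% and 80.0%. The scaled FPKM of the 15-exon form in that animal, 1.15, was close to the Lidia median of 1.11. As Cufflinks divided the fragments, its low PDE4D was thus a low level of the shortest form, 0.0009 against a Lidia median of 1.57. The exon that this form does not share, at chr20:20293517-20293564, has only 48 bases, so its level rests mostly on the division of shared exons. Lidia replicate 6 also had the fewest PDE4D fragments of any animal, 65.2.

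**Figure D2:**
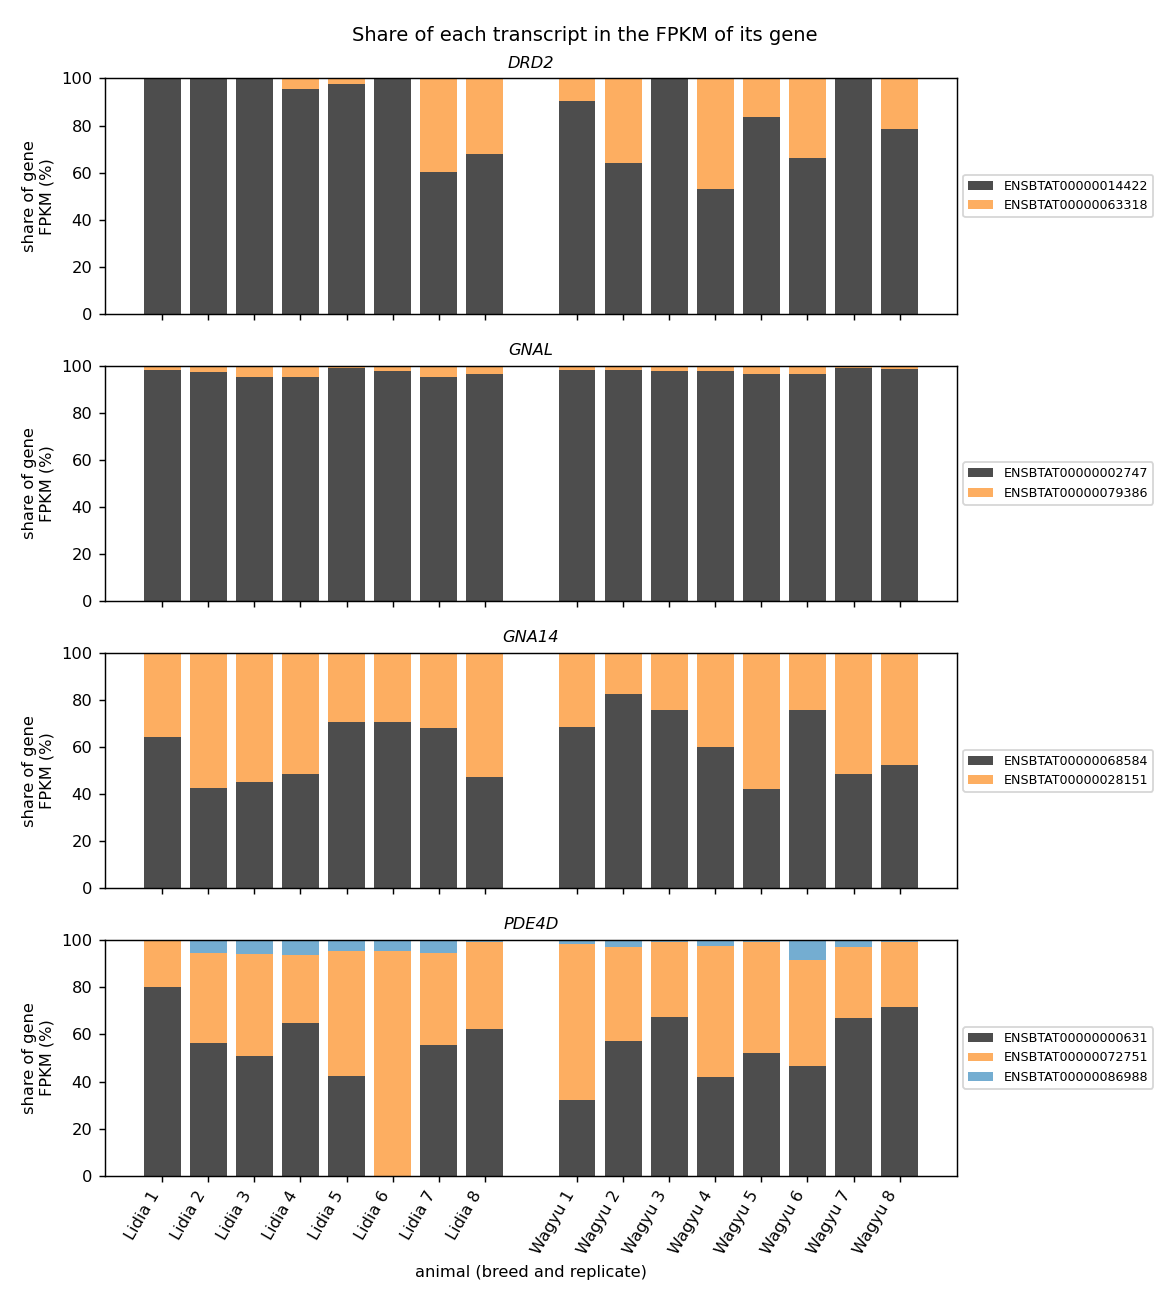
Share of each annotated transcript in the FPKM of DRD2, GNAL, GNA14 and PDE4D, in percent, as a stacked bar for each of the 8 Lidia and 8 Wagyu animals. The form of DRD2 without the 87-base exon (ENSBTAT00000063318) is above 5% in 2 Lidia and 6 Wagyu animals. Among these, Wagyu replicates 1, 5 and 8 have only 1.15 to 1.46 fragments of it. Lidia replicate 6 has 0.0715% of the shortest PDE4D form.

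How the genes varied with one another among animals of one breed was tested, since this relation did not choose them, although the spread within a breed enters the test behind the study's list. Pearson's r between each of the 6 pairs was computed on log2(scaled FPKM + 0.1) within each breed, 12 relations in all. None reached an adjusted p of 0.05 or an unadjusted p of 0.05 in an exact two-sided permutation test over all pairings, by Pearson's r or by Spearman's rho. The smallest adjusted p was 0.563. DRD2 and GNA14 had r = -0.69 in Lidia (exact permutation p = 0.0599, n = 8, rho = -0.52 with p = 0.197), and r = -0.51 without replicates 3 and 6, the 2 animals farthest from the median of DRD2. In Wagyu the same pair had r = 0.04 (exact permutation p = 0.931, n = 8). DRD2 and PDE4D had r = -0.69 in Lidia (exact permutation p = 0.0938, n = 8, rho = -0.19 with p = 0.665), and this turned to 0.89 without replicates 3 and 6. In Wagyu that pair moved from -0.09 (exact permutation p = 0.835, n = 8) to 0.89 without replicates 1 and 8. In Lidia the r of DRD2 with PDE4D thus rested on replicate 6, without which it was 0.042. In Wagyu there was little relation over all 8 animals, and leaving out 1 gave r from -0.41 to 0.49. Without the 2 animals, unadjusted p was 0.0278 in Lidia and 0.0111 in Wagyu (exact permutation test, n = 6). The adjusted p were 0.161 and 0.133. GNAL and PDE4D had r = 0.30 in Lidia (exact permutation p = 0.501, n = 8) and -0.37 in Wagyu (exact permutation p = 0.383, n = 8). The highest r, 0.45, was between GNA14 and PDE4D in Wagyu (exact permutation p = 0.263, n = 8). On the FPKM as deposited, GNAL with GNA14 and GNA14 with PDE4D in Wagyu had r = 0.86 and 0.84, both at an adjusted p of 0.029 (exact permutation test, n = 8), with Wagyu replicate 4, the animal of the highest FPKM sum, included. Within a farm there were 4 bulls, too few for a correlation.

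Whole tissue holds many cell types, so the levels were set beside marker genes that could be named. Of 49 markers of 7 cell types, 20 had a name, and these too came from the study's list, so that their own breed differences were fixed by that choice. None of the 5 oligodendrocyte markers was named. The 2 named neuronal markers of 9, SLC17A7 and GAD2, summed to 98.4 to 149 scaled FPKM in Lidia and 119 to 184 in Wagyu, and none of the 20 markers was listed at 0 in any animal. The 8 named meningeal fibroblast markers of 10, among them the collagen genes COL1A1 and COL1A2 and the proteoglycan gene DCN, summed to 12.8 to 75.7 in Lidia (median 30.6) and to 5.44 to 24.8 in Wagyu (median 6.97). The 4 named endothelial and mural markers of 8 summed to 28.2 to 106 in Lidia (median 33.4) and to 14.8 to 32.8 in Wagyu (median 19.1). The 3 named microglial markers of 5 summed to 13.2 to 26.1 in Lidia and to 6.33 to 14.5 in Wagyu. The 2 named astrocyte markers of 4, GFAP and AQP4, summed to 245 to 365 in Lidia and to 132 to 396 in Wagyu. Of 8 markers of striatal projection neurons, in which DRD2 and GNAL are known to be abundant, only PPP1R1B was named, with 17.6 to 35.3 in Lidia and 11.3 to 20.9 in Wagyu.

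The 4 genes were then related to the summed level of each of the 6 lists within each breed, 48 relations, of which 6 had an unadjusted p under 0.05 and 1 an adjusted p of at most 0.05 (exact two-sided permutation test). These relations were computed after the values had been seen. GNA14 was higher where the meningeal fibroblast markers were higher, with r = 0.84 in Lidia (exact permutation p = 0.006, adjusted p = 0.144, n = 8, rho = 0.81 with p = 0.0218) and r = 0.69 in Wagyu (exact permutation p = 0.0563, adjusted p = 0.356, n = 8, rho = 0.71 with p = 0.0576). Without the 2 farthest animals, r was 0.69 in Lidia and 0.48 in Wagyu, and without Wagyu replicate 2 it was 0.22 in Wagyu. The 3 Lidia animals with the highest GNA14, replicates 5, 3 and 4, had the 3 highest marker sums of all animals, at 75.7, 59.8 and 55.1. The part of these cells in the level of GNA14 was not tested.

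GNAL followed the astrocyte markers in Wagyu, with r = 0.89 (exact permutation p = 0.0005, adjusted p = 0.0238, n = 8, rho = 0.95 with p = 0.0011, adjusted 0.0548), and with r = 0.98 without the 2 farthest animals. In Lidia r was 0.23 (exact permutation p = 0.569, adjusted p = 0.881, n = 8, rho = 0.21 with p = 0.619), and -0.34 without the 2 farthest. The difference between the breeds in this relation was not tested, and the part of these cells in the level of GNAL was not tested. Leaving out any 1 Wagyu animal kept r between 0.857 and 0.965, with an adjusted p above 0.05 each time.

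PDE4D and the endothelial and mural markers had r = -0.90 in Lidia (exact permutation p = 0.0171, adjusted p = 0.263, n = 8, rho = -0.52 with p = 0.197). It was -0.50 without Lidia replicate 6, whose marker sum was 106 against 28.2 to 37.9 in the other Lidia animals, and -0.35 without the 2 farthest animals. In Wagyu r was -0.27 (exact permutation p = 0.511, adjusted p = 0.881, n = 8, rho = -0.52 with p = 0.197) and -0.35 without the 2 farthest, and rho was the same in both breeds. PDE4D also had r = -0.81 with the microglial markers in Lidia (exact permutation p = 0.0283, adjusted p = 0.272, n = 8, rho = -0.38 with p = 0.3599), and r = 0.09 without the 2 farthest animals. The part of these cells in the level of PDE4D was not tested.

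The other 2 relations with an unadjusted p under 0.05 involved DRD2 and GNA14. DRD2 had r = 0.76 with the microglial markers in Lidia (exact permutation p = 0.035, adjusted p = 0.28, n = 8, rho = 0.52 with p = 0.197), and r = 0.63 without the 2 farthest animals. GNA14 had r = -0.80 with the neuronal markers in Wagyu (exact permutation p = 0.0219, adjusted p = 0.263, n = 8, rho = -0.45 with p = 0.268), and r = -0.79 without the 2 farthest. The part of these cells in either level was not tested.

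**Figure D3:**
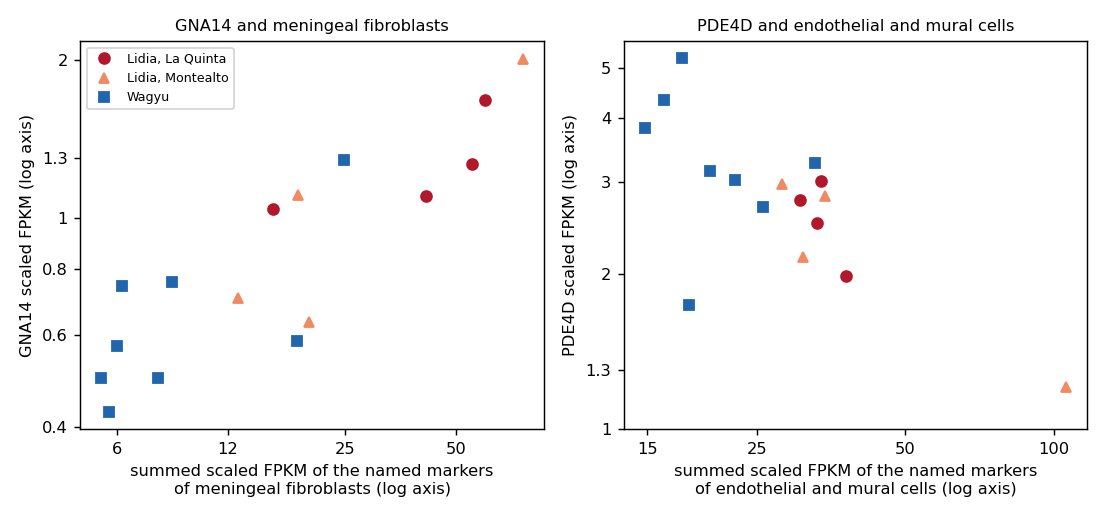
Left, scaled FPKM of GNA14 against the summed scaled FPKM of 8 meningeal fibroblast markers; right, PDE4D against 4 endothelial and mural markers; each point is an animal and both axes are logarithmic. GNA14 is highest, at 2.01, where the marker sum is highest, at 75.7, and Lidia replicate 6 stands alone with a marker sum of 106 and PDE4D at 1.21.

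Genes whose pattern was most like that of each member were sought among the 1157 tested genes with a symbol, by Pearson's r of log2(scaled FPKM + 0.1) centred within each breed over the 16 animals. The r values are a description, and the animals share libraries and scaling factors. For DRD2 they were PPP1R14A (0.81), an inhibitor of myosin phosphatase, TMEM88B (0.77) and SLAIN1 (0.77), a microtubule-associated protein. For GNAL they were KLHL25 (0.84), CNGB1 (0.81), a subunit of cyclic nucleotide-gated channels, and PEG10 (0.78), a gene of retrotransposon origin. For GNA14 they were JAM2 (0.92), a junctional adhesion molecule, BMP7 (0.92), a secreted growth factor, and OLFML3 (0.89), a secreted glycoprotein. For PDE4D they were LONRF3 (0.95), NUDT21 (0.94), a factor of mRNA 3' end cleavage, and SLC2A13 (0.93), a myo-inositol transporter. Among all tested genes, those with no symbol included, the nearest of these ranked 8 for DRD2, 4 for GNAL, 4 for GNA14 and 25 for PDE4D, so genes without a name were closer.

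A list of 75 genes of dopamine signalling and cAMP held 15 with a name, the 4 above and 11 others. All 15 took their names from the study's list, so their differences are again a description with no p-value. Of the 11 others, 6 were higher and 5 lower in Lidia, with a median difference of 0.51 against -0.01 for all tested genes, and 3 of the 11 were called, against 4.99% of all tested genes, a count that the choice of the 11 by the same comparison makes no evidence. As deposited, and also without Lidia replicate 4 and Wagyu replicate 4, 0 of the 11 were called by limma. The 60 others could not be named, among them DRD1, which encodes the main D1-class receptor, and all 6 subunit genes of protein kinase A on the list.

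Among the receptors, DRD5, a D1-class receptor, was at 0.0255 to 0.388 scaled FPKM in Lidia (median 0.117) and at 0.145 to 0.820 in Wagyu (median 0.238), a difference of -0.73 (SE 0.33). The breeds overlapped for DRD5 as for DRD2, and 5 Lidia animals lay below all Wagyu animals. Of 10 beta and gamma subunits on the list, 2 were named. GNG11, a gamma subunit, was at 5.68 to 18.4 in Lidia (median 7.73) and at 3.26 to 6.52 in Wagyu (median 5.01), a difference of 0.83 (SE 0.21), and it was called. GNB3, a beta subunit, was at 1.05 to 2.86 in Lidia (median 1.38) and at 0.744 to 1.34 in Wagyu (median 0.855), a difference of 0.56 (SE 0.17). By scaled FPKM both were highest in Lidia replicate 6, the animal with the highest DRD2 and the lowest PDE4D. Its scaling factor, 0.617, was the lowest of all animals. As deposited, GNG11 was highest in Lidia replicate 5 (14.7 against 11.3 in replicate 6). GNB3 was then highest in Lidia replicate 4 (2.79 against 1.76 in replicate 6). PDE4D was lowest in Lidia replicate 6 on both scales.

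Of 9 adenylyl cyclases, the enzymes that make cAMP, ADCY4 alone was named. It was at 0.354 to 0.897 in Lidia (median 0.567) and at 0.2003 to 0.707 in Wagyu (median 0.270), a difference of 0.72 (SE 0.20), and it was called. PDE4D was the only one of 16 phosphodiesterases with a name. Of the targets, PPP1R1B encodes DARPP-32, a phosphatase inhibitor that protein kinase A switches on. It was at 17.6 to 35.3 in Lidia (median 24.3) and at 11.3 to 20.9 in Wagyu (median 16.7), a difference of 0.57 (SE 0.15), and it was called. CREB5, a transcription factor of the CREB family, differed by 0.51 (SE 0.20), with 0.239 to 0.764 in Lidia and 0.162 to 0.513 in Wagyu.

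Regulators of G protein signalling speed the return of alpha subunits to their inactive state, and 4 of 7 were named, all lower in Lidia. RGS4 was at 23.9 to 46.6 in Lidia (median 32.8) and at 31.6 to 53.7 in Wagyu (median 45.6), a difference of -0.40 (SE 0.14). RGS8 was at 0.300 to 0.957 in Lidia (median 0.618) and at 0.782 to 1.61 in Wagyu (median 1.04), a difference of -0.66 (SE 0.19), and 6 Lidia animals lay below all Wagyu animals. RGS1 differed by -0.69 (SE 0.23) and RGS14 by -0.46 (SE 0.19). DDC, which encodes the decarboxylase that makes dopamine, was at 1.82 to 2.93 in Lidia and at 0.867 to 3.01 in Wagyu, a difference of 0.62 (SE 0.19). None of the 4 regulators, CREB5, GNB3, DRD5 or DDC was called.

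**Figure D4:**
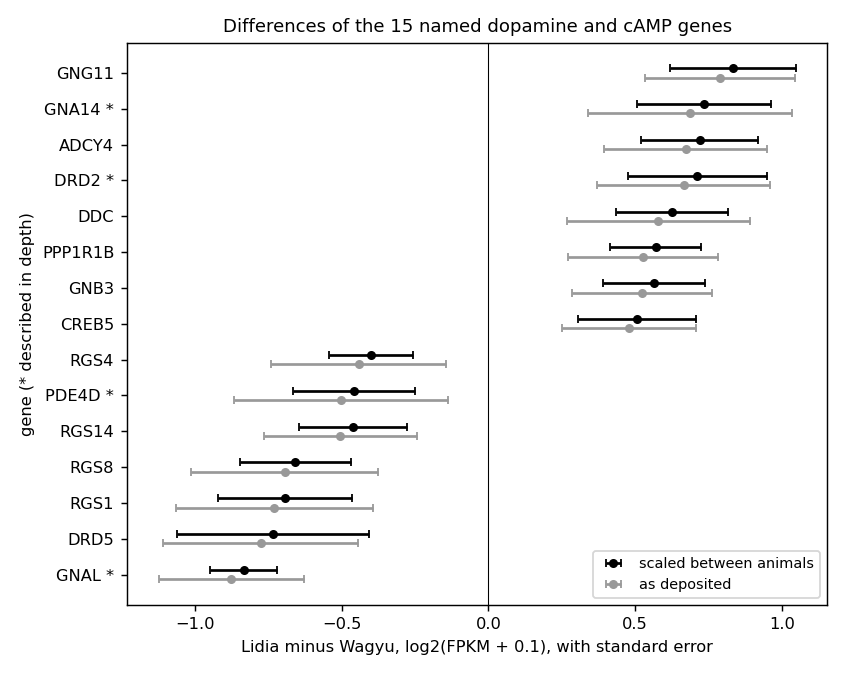
Difference between Lidia and Wagyu of the 15 named dopamine and cAMP genes on the log2(FPKM + 0.1) scale, with its standard error, for values scaled between animals (black) and as deposited (grey); n = 8 per breed. GNG11 has the highest difference, 0.83, and GNAL the lowest, -0.83, and no gene changes sign between the scales, all 15 having been chosen with the same comparison.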

How the data were processed

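The authors trimmed reads with PRINSEQ, mapped them with STAR 2.7.3a to ARS-UCD 1.2 with the Ensembl annotation, handled them with SAMtools 0.1.18, and obtained transcript values with Cufflinks 2.2.1. The deposited unit is FPKM, with coverage and confidence limits for each of 43984 transcripts per animal; it precedes the authors' merging and Cuffdiff test and is not scaled between animals. Gene FPKM was summed over transcripts and divided by median-of-ratios factors. The fragment total by which FPKM is divided in each animal was read from coverage divided by FPKM. Fragments per transcript were read from coverage times exon length, both at 200 bases per fragment. Intervals and fragment numbers cover counting error only. The breeds were compared two-sided on log2(scaled FPKM + 0.1) with limma (version 3.58.1, R version 4.3.3), using moderated variances that follow a trend with level, for genes with a mean of at least 0.1. No covariate was used because each farm held 1 breed. The limma comparison was also run on simulated data with independent normal noise per gene. These hold no differences in depth or scaling between animals, so they do not cover them. Exact permutations used Python 3.11.15, numpy 2.4.6, scipy 1.17.1 and pandas 2.3.3, and figures matplotlib 3.10.9.

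The 4 genes and all lists were chosen with earlier results of these data known. Names came from the study's supplementary list alone: 1163 of its 1197 entries were paired with 1 gene by identical start and end. A RefSeq table of 37063 genes is of another assembly and gave no names. The genes named are the 4, the named genes of the dopamine and cAMP list, 3 genes of like pattern for each of the 4, and markers beside a result. Alternatives were FPKM as deposited, upper-quartile scaling, pseudocounts of 1 and 0.01, a mean of at least 1 or no filter, no trend, array weights, each farm alone, and leaving out animals. The authors' fold changes and p-values were not used. Sequences were not used here.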

Additional observations from a re-analysis of the deposited data

Results flagged for a closer look

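Among 42 groups of 8 animals examined, for the 15 named genes and 6 transcript shares in each breed, 7 held a value far from the other 7 animals. For normally distributed values chance gives such a value in about 1 group in 20, and shares in percent need not be so distributed. Lidia replicate 6 accounted for 4 of the 7, and it had the fewest GNAL and PDE4D fragments of any animal, 122.7 and 65.2. Its PDE4D, at 1.21 scaled FPKM, was the lowest of the Lidia animals by a wide gap. In the same animal the shortest PDE4D form (ENSBTAT00000000631) held 0.0715% of the gene's FPKM and the 15-exon form (ENSBTAT00000072751) 95.5%, which are counterparts of each other. GNB3 was also far above the other Lidia animals there, at 2.86 scaled FPKM. As deposited, GNB3 was 1.76 there, below the 2.79 of Lidia replicate 4. Among the Wagyu animals, replicate 2 had the highest ADCY4, 0.707 scaled FPKM, replicate 4 the highest RGS8, 1.61 scaled FPKM, and replicate 6 the highest share of the intermediate PDE4D form (ENSBTAT00000086988), 8.22%. Wagyu replicate 4 is the animal with the smallest fragment total by which FPKM is divided, 7.67 M.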

How the results depend on the processing

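Over the alternatives run, the log2 differences of the 4 genes and the differences in transcript share stayed within 1 SD of the values reported, 106 and 95 comparisons. The direction of the 4 log2 differences did not change, but that of DRD2 fell to 0.26 with a pseudocount of 1. Differences in share did change sign. For the shortest PDE4D form, -2.92 percentage points (Lidia minus Wagyu) became 8.498 with La Quinta only, -14.3 with Montealto only and 4.43 without Lidia replicate 6. For the 15-exon form, 1.35 became -10.4, 13.1 and -5.96, and turned below 0 also without Wagyu replicate 3, 7 or 8. For the GNA14 form with the 700-base exon, 6.11 became -0.91 with Montealto only. Leaving out Lidia replicate 4 and Wagyu replicate 4 together, and all alternatives for relations with marker lists, were chosen after seeing the data. The 827 genes called became 0 as deposited, 3088 with array weights, 284 with La Quinta bulls only, 51 with Montealto bulls only and 207 without both replicates 4. Leaving out 1 animal at a time gave 363 to 1424, the lowest without Wagyu replicate 8 and the highest without Wagyu replicate 2. The 3 other dopamine and cAMP genes called became 0 as deposited, 1 with no filter, 9 with array weights, 1 with La Quinta only, 0 with Montealto only and 0 without both replicates 4, and 0 to 6 leaving out 1 animal. The cause was not tested.

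Within Wagyu as deposited, r became 0.58 for DRD2 with GNAL, 0.62 for DRD2 with PDE4D and 0.86 (0.855) for GNAL with PDE4D, each of opposite sign. It became 0.86 for GNAL with GNA14 and 0.84 for GNA14 with PDE4D, both at an adjusted p of 0.029 (exact permutation test). With a pseudocount of 1, DRD2 with GNA14 in Wagyu became -0.015. Without the 2 animals farthest from the median, DRD2 with GNAL in Lidia became 0.29, and DRD2 with PDE4D became 0.89 in Lidia (0.885) and 0.89 in Wagyu (0.893). Leaving out 1 animal gave -0.24 to 0.32 for DRD2 with GNA14 in Wagyu, -0.78 to 0.042 and -0.41 to 0.49 for DRD2 with PDE4D in Lidia and Wagyu, -0.22 to 0.58 for GNA14 with PDE4D in Lidia, and -0.072 to 0.60 and -0.46 to 0.44 for GNAL with GNA14 in Lidia and Wagyu. For the marker lists as deposited, PDE4D with endothelial and mural markers in Wagyu became 0.70, and GNA14 with meningeal markers in Lidia became 0.92 (adjusted p = 0.0268, exact permutation test). Without the 2 farthest animals, GNAL with astrocyte markers became -0.34 in Lidia and 0.98 in Wagyu, where n = 6 gave an adjusted p of 0.133 (exact permutation test). Leaving out 1 animal gave -0.13 to 0.56 in Lidia and 0.857 to 0.965 in Wagyu for that relation.

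No paired analysis was possible because replicate numbers were given in the order of the series and only name the animals. DRD2 and GNA14 are limited by depth, with as few as 9.5 and 10.9 fragments in an animal. So are the shares of their transcripts. Only 15 of 75 list genes and 20 of 49 markers had names, all from a list made with this comparison.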
